A study of Mus musculus with 8 samples.

Results

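The genes described here are 47 genes that dividing cells use, 25 for DNA replication in S phase and 22 for mitosis. They were measured in cells of the mouse vertebral column sorted by EGFP made from the Bapx1 locus. The members were fixed as a list of gene names, and every array probe that the platform annotation assigns to 1 of them was taken. Of the 45281 probes on the array, 92 are listed for the members, 82 of these could be tied to intensity values, and 70 were detected above background on at least 4 of the 8 arrays. These 70 probes measured 39 genes, 23 of replication and 16 of mitosis. Of the 8 members without a test, Mki67 and Ccnb1 had no listed probe, the probes of Pola1, Slbp, Ccnb2 and Bub1 could not be tied to an address on the array, and those of Cenpe and Kif20a were detected on 0 arrays. Every address that the unmatched probes could belong to was near background, with a highest intensity of 14.3 on the linear scale.

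Before a cell copies its DNA, the origin recognition complex, Cdc6 and Cdt1 load rings of Mcm2 to Mcm7 onto origins, and these rings become the moving helicase in S phase. Most genes of replication are transcribed at the entry into S phase by E2F factors once cyclin-dependent kinases have inactivated the retinoblastoma family. Genes of mitosis are transcribed later, in G2, through a promoter element called the cell cycle homology region (CHR), often beside a CCAAT box. In bulk RNA the summed level of both groups is widely read as a sign of how many cells are cycling, and fewer cycling cells cannot be told apart there from less of each RNA per cycling cell.

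The classes of the members come from the list of names and not from their promoters, whose letters are shown here beside the classes. RefSeq promoters on GRCm38.p6, from 250 bases before to 50 bases after the start, were at hand for 21 replication and 18 mitosis members. E2F letters, searched as TTTGGCGC, TTTCCCGC, TTTGCCGC and TTTCGCGC on both strands, occurred in 8 of the 21 replication members (38.1%) and 1 of the 18 mitosis members (5.56%), against 2.26% of all 32851 promoters in the table. The CHR letters TTTGAA, on either strand, occurred in 2 replication members (9.52%) and 13 mitosis members (72.2%), against 17.9% of all promoters. CCAAT occurred in 13 (61.9%), 16 (88.9%) and 37.4%. A member was counted if any of its promoters matched, while the share over all promoters counts each promoter alone. Members with several starts therefore had more chances to match. Such a match is a description of the letters in this window and not evidence of binding. The members described in full below that hold the letters of their own class are the following, each with the match nearest its start in a window of 30 bases on the strand of the gene. In the replication class the E2F letters, or their reverse complement, are in capitals.
Cdt1: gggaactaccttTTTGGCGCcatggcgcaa
Mcm5: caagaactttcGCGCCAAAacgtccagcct
Mcm6: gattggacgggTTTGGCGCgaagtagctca
In the mitosis class the CHR letters, or their reverse complement, are in capitals.
Cenpa: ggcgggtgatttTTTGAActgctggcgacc
Kif23: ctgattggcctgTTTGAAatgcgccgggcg
Kif11: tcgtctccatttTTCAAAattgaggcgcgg
Aurka: aaaaggagaaccTTTGAAttgtaacggctg
Top2a: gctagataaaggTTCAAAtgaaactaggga
The windows of Cdt1, Cenpa, Kif23 and Aurka have their capitals after the start, at chr8:122568035-122568064, chr5:30666890-30666919, chr9:61946780-61946809 and chr2:172370521-172370550. Those of Mcm5, Mcm6, Kif11 and Top2a have them before the start, at chr8:75109349-75109378, chr1:128359734-128359763, chr19:37376351-37376380 and chr11:99024195-99024224. In Mcm5 the match on the opposite strand overlaps a second match, TTTCGCGC, on the strand of the gene. The windows of Mcm6 and Kif23 each also hold ATTGG, the reverse complement of CCAAT, before the capitals. Bub1b and Cdc20, described below for their probes, hold the CHR letters as well. The letters also crossed the classes, with CHR letters in Mcm2 and Cdc45 of replication and E2F letters in Cdk1 of mitosis. The promoters of Chek1, Tk1, Tyms and Rrm1 hold none of the E2F letters searched.

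Bapx1, whose current symbol is Nkx3-2, is a homeodomain transcription factor of the sclerotome, the embryonic tissue that forms the vertebrae. Cells were sorted by EGFP from vertebral columns of C57BL/6J;129 embryos at E12.5. In the null group (4 arrays) EGFP was placed just behind the start codon of Bapx1, and embryos were homozygous for this allele (Bapx1 tm4.Tlu). In the wildtype group (4 arrays) Bapx1 itself stayed intact and EGFP was made from the same transcript by means of an IRES behind it (Bapx1 tm2.Tlu, written by the study as heterozygous). Reporter dose and EGFP translation therefore changed along with genotype, and a shift in the cells collected for this reason cannot be told apart from one due to genotype. The replicates are described as biological, but the sources used here do not say how many embryos went into each, so the p-values measure the spread between these samples.

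The intensities are background-corrected, quantile-normalized log2 values, and a difference is null minus wildtype on that scale. Between 41.0% (wildtype replicate 2) and 45.8% (null replicate 4) of probes were detected per array. By probe ILMN_2687592 the targeted gene Nkx3-2 read 5.45, 7.49, 6.59 and 7.55 in null and 4.42, 4.46, 4.48 and 4.84 in wildtype, with detection on 4 and 0 arrays. Its other probe, ILMN_2687594, read 4.75, 7.57, 6.38 and 7.31 in null and 4.51, 4.30, 4.24 and 4.30 in wildtype, with detection on 3 and 0 arrays. The sources used here do not place these probes relative to the inserted EGFP, so they do not check the labels. Null and wildtype below are the groups as labelled. Across all 19965 tested probes, 156 (0.781%) passed an adjusted p of 0.05 (limma, Benjamini-Hochberg over all probes). Wildtype replicate 2 (mean correlation 0.969 with its own group) and null replicate 1 (0.972) were the arrays least like their groups. Null replicate 1 was closer to the wildtype arrays (0.976) than to its own group. Wildtype replicate 2 was further still from the null arrays (0.956). Values without null replicate 1 or wildtype replicate 2 are given for the counts over the members and for some of the genes described in full. The cartilage markers fixed for the sort (Col2a1, Acan, Sox9 and others, 14 of 18 tested) were present in both groups, lower in null for 13 of 14 with 6 called, with summed linear intensities of 17696 to 22799.8 in null and 32089.7 to 39342 in wildtype.

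Replication and mitosis genes were, for the most part, lower in null than in wildtype by small amounts, and no single member passed the threshold. Each gene was represented by its brightest tested probe. Of the 39 genes, 0 were called lower and 0 were called higher (limma), where 0.447% of all 10951 genes were called lower and 0.493% were called higher. The difference was below 0 for 35 of 39 members, 21 of 23 in replication and 14 of 16 in mitosis, against 54.3% of all genes, and for 14 of 23 and 11 of 16 where arrays were only centred on their median, a setting that turned Mcm4, Mcm7, Cdc45, Gins2, Prim1, Rrm1, Dut, Top2a, Birc5 and Ube2c in sign. The median difference was -0.36 in replication and -0.40 in mitosis, against -0.03 over all genes. At an unadjusted p of 0.05, 19 members were lower (12 of replication and 7 of mitosis) and 0 were higher, against 11% and 12% of all genes. For 9 members (4 and 5) every null array lay below every wildtype array, against 6.4% of all genes. These counts are a description, because the members share the same 8 arrays and are not independent of each other.

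**Figure D1:**
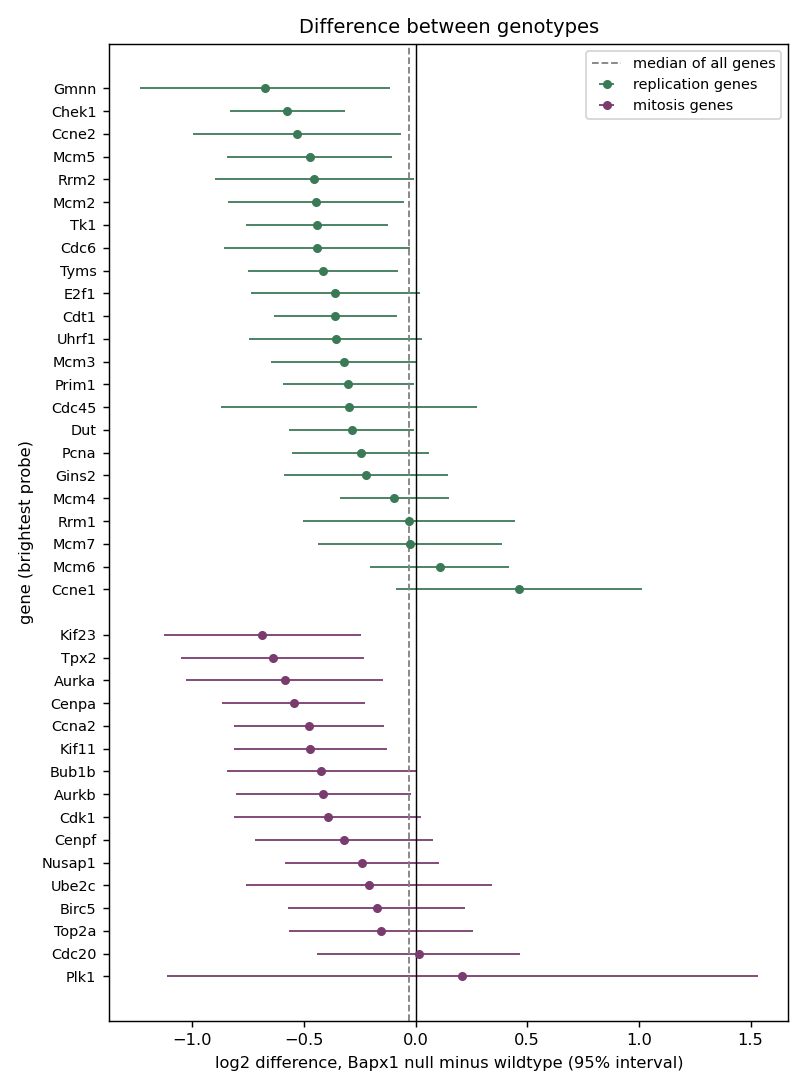
Log2 difference, Bapx1 null minus wildtype, for the brightest probe of each of the 39 tested members, with its 95% interval from limma (4 arrays per group); replication genes are above and mitosis genes below, and the dashed line is the median of all genes (-0.03). Most points lie left of 0, between -0.69 for Kif23 and 0.46 for Ccne1, and Plk1 has the widest interval. With arrays only centred on their median, 10 of the members turn in sign.

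The arrays within a group were not alike. Averaged over the 23 replication genes, the deviation from each gene's mean was -0.11, -0.29, 0.0019 and -0.19 on the null arrays, against -0.04, 0.43, 0.06 and 0.13 on the wildtype arrays. Averaged over the 16 mitosis genes it was -0.07, -0.30, -0.08 and -0.23 in null, against -0.03, 0.55, -0.02 and 0.19 in wildtype. Null replicates 2 and 4 were the low arrays and wildtype replicate 2 was the high array in both classes, and the groups overlapped in replication but not in mitosis. Wildtype replicate 2 was the highest of the 8 arrays for 31 of 39 members (17 of replication and 14 of mitosis) and the lowest for 0, where it was the highest for 25.3% and the lowest for 22.1% of all genes. The lowest array was null replicate 2 for 14 members and null replicate 4 for 11.

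**Figure D2:**
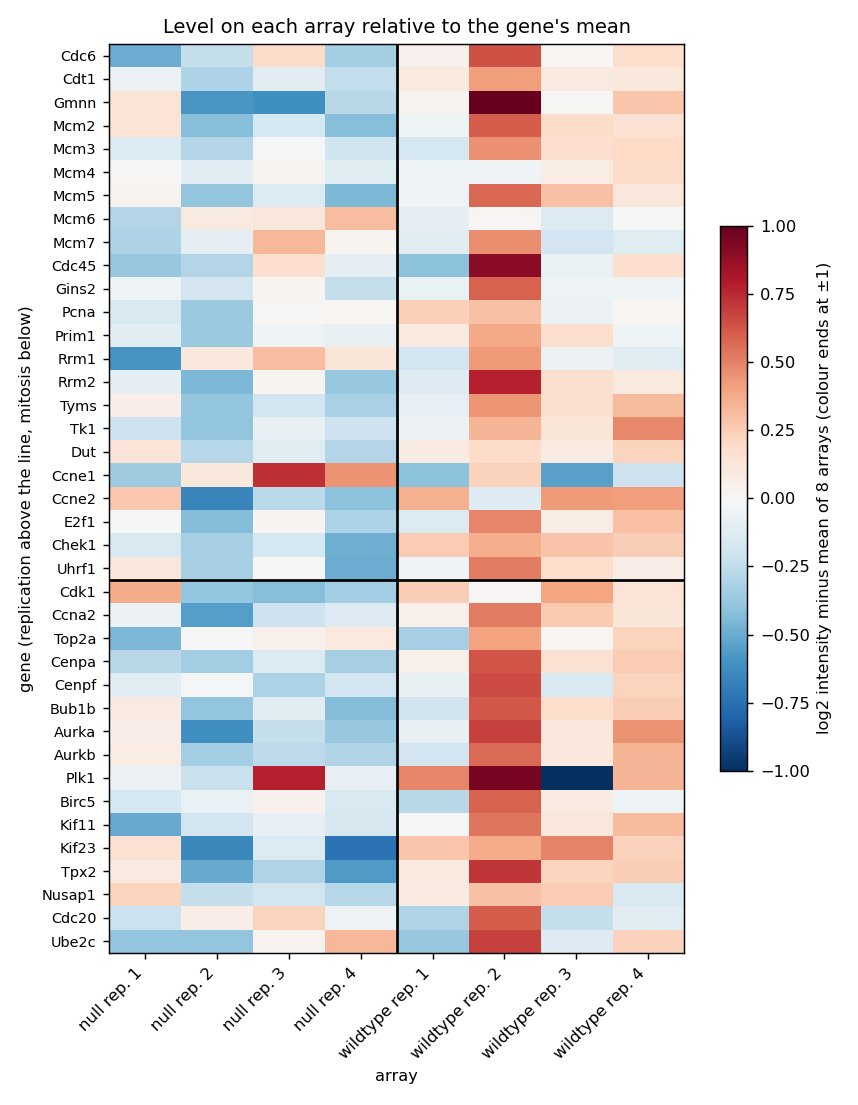
Level of each tested member (rows, brightest probe) on each array (columns, 4 null left and 4 wildtype right) as log2 intensity minus the mean of the 8 arrays. Wildtype replicate 2 is the darkest red column, with the highest value for 31 of 39 genes, and null replicates 2 and 4 hold most of the lowest values.

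Of the 39 members, 33 were below 0 without null replicate 1, 33 without wildtype replicate 2 and 29 without both. Without wildtype replicate 2 the median differences were -0.26 in replication and -0.29 in mitosis, and 0 members were called, where 0.584% of all genes were called lower. Without null replicate 1, 10 members were called lower and 0 higher, against 7.27% of all genes called lower. These were Chek1, Ccne2, Dut, Mcm5 and Tyms in replication and Cdk1, Kif23, Tpx2, Aurka and Cenpa in mitosis. With both arrays left out, a choice made after the values were seen, 11 members were called lower and 1 was called higher, against 9.38% lower and 12.2% higher of all genes. Those called lower were Ccne2, Chek1, Dut, Gmnn, Mcm2 and Mcm5 in replication and Aurka, Cdk1, Cenpa, Kif23 and Tpx2 in mitosis. Ccne1 was the member called higher. With arrays weighted by their fit, 23 members were called lower and 1 higher (Ccne1 again), against 16.1% and 16.4% of all genes.

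Markers of other cells also differed between the arrays. The neuron markers fixed for this comparison were tested for 14 of 20 genes and were higher in null for 13, of which 0 were called. Their summed linear intensity was 4176 to 6769.8 in null and 1971 to 3471 in wildtype, with wildtype replicate 2 the lowest at 1971. Tubb3, Nefl, Snap25, Nhlh1, Stmn4 and Chga did not pass the detection filter. Skeletal muscle markers (12 of 17 tested, 11 higher in null, 0 called) summed to 1917 to 5648 in null, where replicate 1 was the highest, and to 939 to 2427 in wildtype, where replicate 2 was the lowest. Endothelial markers (10 of 13 tested, 9 higher in null, 1 called) summed to 2502 to 3304 in null and 1978 to 2736 in wildtype. Meningeal markers (10 of 13 tested, 8 higher in null, 2 called) overlapped in summed intensity, at 48497 to 53647 in null and 49653 to 54627 in wildtype. Their mean deviation per array did not overlap, at 0.22 to 0.52 in null and -0.60 to -0.18 in wildtype. Sclerotome markers (11 of 12 tested, 5 higher in null, 3 called) summed to 12161 to 13125 in null and 14230.2 to 15532 in wildtype. Neural progenitor markers (6 of 15 tested, 4 higher in null, 1 called) summed to 1932 to 2180.5 in null and 1966 to 2318 in wildtype. Blood markers (8 of 13 tested, 3 higher in null, 0 called) summed to 1327 to 1898 in null and 852 to 6647 in wildtype. The part of these cells in the values of the replication and mitosis genes was not tested.

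Origin licensing and firing comprised 11 members, of which 10 were lower in null (Mcm4, Mcm7, Cdc45 and Gins2 not so under median centring), with a median difference of -0.32. Cdt1, which loads the helicase onto origins, read 10.38, 10.12, 10.32 and 10.19 in null and 10.53, 10.85, 10.52 and 10.54 in wildtype. All null arrays lay below all wildtype arrays, and wildtype replicate 2 was far above the other wildtype arrays, which agreed within a narrow range. The difference was -0.36 (95% interval -0.63 to -0.08), with an adjusted p of 0.152 (limma) and an exact permutation p of 0.0286 (two-sided), the smallest that 4 against 4 arrays can give.

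Gmnn encodes geminin, which binds and blocks Cdt1 once S phase has begun. It read 6.74, 6.03, 6.00 and 6.33 in null and 6.65, 7.64, 6.62 and 6.89 in wildtype. Null replicate 1 was inside the wildtype range, and wildtype replicate 2 stood above all others. The difference was -0.67 (SE 0.25, limma adjusted p = 0.173) and -0.44 without wildtype replicate 2. With null replicate 1 left out as well it was -0.60 (limma adjusted p = 0.0222).

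The helicase subunits differed from each other in size and sign. Mcm5 read 11.95, 11.52, 11.78 and 11.47 in null and 11.88, 12.49, 12.21 and 12.02 in wildtype, a difference of -0.47 (SE 0.17, limma adjusted p = 0.157). Mcm2, a usual marker of proliferating cells, read 10.08, 9.53, 9.77 and 9.52 in null and 9.90, 10.55, 10.13 and 10.10 in wildtype, a difference of -0.45 (SE 0.18, limma adjusted p = 0.191). For both genes null replicates 2 and 4 were lowest and null replicate 1 overlapped the wildtype arrays. Mcm3 averaged 0.32 lower (7.63 ± 0.12 in null and 7.95 ± 0.26 in wildtype, SD, n = 4 each). Mcm4 and Mcm7 differed by -0.09 and -0.03, each with an interval that spanned 0.

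Mcm6 was measured by 4 probes that differed in sign. The brightest, ILMN_2803399, read 10.67, 11.04, 11.07 and 11.26 in null and 10.86, 10.96, 10.82 and 10.96 in wildtype, a difference of 0.11 (95% interval -0.20 to 0.42). ILMN_1233857 read 10.24, 9.88, 9.99 and 9.94 in null and 10.12, 10.49, 10.52 and 10.62 in wildtype, a difference of -0.42 (limma adjusted p = 0.147). The intervals of these 2 probes of the same gene overlapped only in part. ILMN_1236125 differed by -0.09. ILMN_1217331 read 8.62, 7.72, 11.07 and 8.09 in null and 8.63, 9.02, 12.33 and 12.47 in wildtype. It fell into a high set of null replicate 3 with wildtype replicates 3 and 4 and a low set of the other 5 arrays, which no other probe of the gene showed, and its difference of -1.74 had an interval of -3.99 to 0.52.

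Cdc6, the other loader, differed by -0.44 (SE 0.19) and Cdc45, which joins the helicase at firing, by -0.30 (SE 0.26). Cdc45 without wildtype replicate 2 differed by -0.05. Gins2, a subunit of the GINS complex that completes the helicase, had 3 tested probes. The brightest read 8.44, 8.29, 8.52 and 8.25 in null and 8.42, 9.08, 8.44 and 8.45 in wildtype, a difference of -0.22 that was -0.06 without wildtype replicate 2. By ILMN_1245109 the values were 6.69, 6.45, 6.58 and 6.36 in null and 6.83, 7.37, 6.74 and 6.76 in wildtype, with no overlap (difference -0.40, limma adjusted p = 0.197). ILMN_1246270 differed by 0.04. Outside wildtype replicate 2, the 3 probes did not place the arrays in the same order.

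The clamp Pcna, also used as a marker of S phase, read 9.60, 9.38, 9.76 and 9.77 in null and 9.99, 10.05, 9.69 and 9.77 in wildtype. The groups overlapped at null replicates 3 and 4, and the difference was -0.25 (95% interval -0.55 to 0.06). Prim1, the primase subunit that starts each new strand, averaged 7.98 ± 0.15 in null and 8.28 ± 0.18 in wildtype (SD, n = 4 each). Its groups did not overlap, and the difference was -0.30 (limma adjusted p = 0.223).

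All 5 members of nucleotide supply were lower in null by their brightest probe, Rrm1 and Dut not under median centring, with a median of -0.41. Tk1 encodes thymidine kinase, which salvages thymidine for DNA synthesis. By its brightest probe, ILMN_2605890, it read 9.20, 9.01, 9.33 and 9.20 in null and 9.35, 9.75, 9.53 and 9.89 in wildtype, with no overlap (difference -0.44, SE 0.14, limma adjusted p = 0.138). The other tested probe, ILMN_2893926, read 5.87, 6.22, 6.49 and 6.37 in null and 5.61, 6.18, 5.39 and 5.65 in wildtype. Here the null arrays lay above the wildtype arrays other than replicate 2, the difference was 0.53 (95% interval 0.10 to 0.96, limma adjusted p = 0.167), and its interval did not overlap that of the brightest probe (-0.76 to -0.12). This probe was called higher in null without null replicate 1 (0.65, limma adjusted p = 0.0478), without that array and wildtype replicate 2 (0.81, limma adjusted p = 0.00619) and with array weights (0.73, limma adjusted p = 0.00467).

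Tyms, the thymidylate synthase, had 5 tested probes. The brightest, ILMN_2484707, read 10.51, 10.07, 10.27 and 10.13 in null and 10.37, 10.89, 10.61 and 10.76 in wildtype, a difference of -0.41 (SE 0.15, limma adjusted p = 0.169). Null replicate 1 overlapped the wildtype range. ILMN_2434519 and ILMN_2441895 both differed by -0.44, and ILMN_1247173 and ILMN_2441899 by 0.03 and 0.01.

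Ribonucleotide reductase makes the deoxynucleotides from a large subunit, Rrm1, and a small subunit, Rrm2. Rrm1 by its brightest probe read 9.53, 10.22, 10.43 and 10.24 in null and 9.93, 10.54, 10.06 and 10.01 in wildtype. Null replicate 1 was the lowest of all 8 arrays while the other null arrays lay within the wildtype range, and the difference was -0.03 (95% interval -0.50 to 0.44). By ILMN_1258715 it read 9.0, 8.84, 9.37 and 8.83 in null and 8.93, 9.36, 8.75 and 8.71 in wildtype, a difference of 0.07. Rrm2 was lower on each of its 3 tested probes, by -0.45, -0.55 and -0.45. Dut, which removes dUTP, differed by -0.29 and -0.18 on its 2 probes.

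Of the factors at the entry into S phase, both E-type cyclins, which activate Cdk2, were tested and differed in opposite directions. Ccne1 averaged 6.71 ± 0.47 in null and 6.25 ± 0.34 in wildtype (SD, n = 4 each), a difference of 0.46 (95% interval -0.09 to 1.01, limma adjusted p = 0.297). Ccne2 averaged 7.20 ± 0.39 in null and 7.73 ± 0.27 in wildtype, a difference of -0.53 (95% interval -1.0 to -0.06, limma adjusted p = 0.189). For Ccne2, wildtype replicate 2 was not high but the lowest wildtype array. Without null replicate 1 and wildtype replicate 2 the differences were 0.81 for Ccne1 (limma adjusted p = 0.0202) and -0.84 for Ccne2 (limma adjusted p = 0.00579). E2f1, the activating E2F of this list, differed by -0.36 (SE 0.17).

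Chek1, the checkpoint kinase that guards stalled replication forks, had the smallest p of the 39 members. It read 8.33, 8.15, 8.30 and 7.99 in null and 8.74, 8.85, 8.76 and 8.72 in wildtype by ILMN_3009652. The wildtype arrays lay within a narrow band, wildtype replicate 2 included, and all null arrays lay below it. The difference was -0.57 (95% interval -0.83 to -0.32), 1.49-fold higher in wildtype, with a limma adjusted p of 0.0545 and an exact permutation p of 0.0286.

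Its other probe, ILMN_2630974, read 7.95, 7.98, 7.82 and 7.96 in null and 8.31, 8.18, 8.28 and 8.28 in wildtype, again without overlap (difference -0.33, limma adjusted p = 0.126). Chek1 kept its direction when wildtype replicate 2 was left out (-0.55, limma adjusted p = 0.0845) and passed without null replicate 1 (-0.62, limma adjusted p = 0.0114). With a background offset of 50 in place of 16 it was the 1 member called, where 0.594% of all genes were called lower. Uhrf1, which brings the maintenance methyltransferase to newly copied DNA, differed by -0.36 (SE 0.17).

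**Figure D3:**
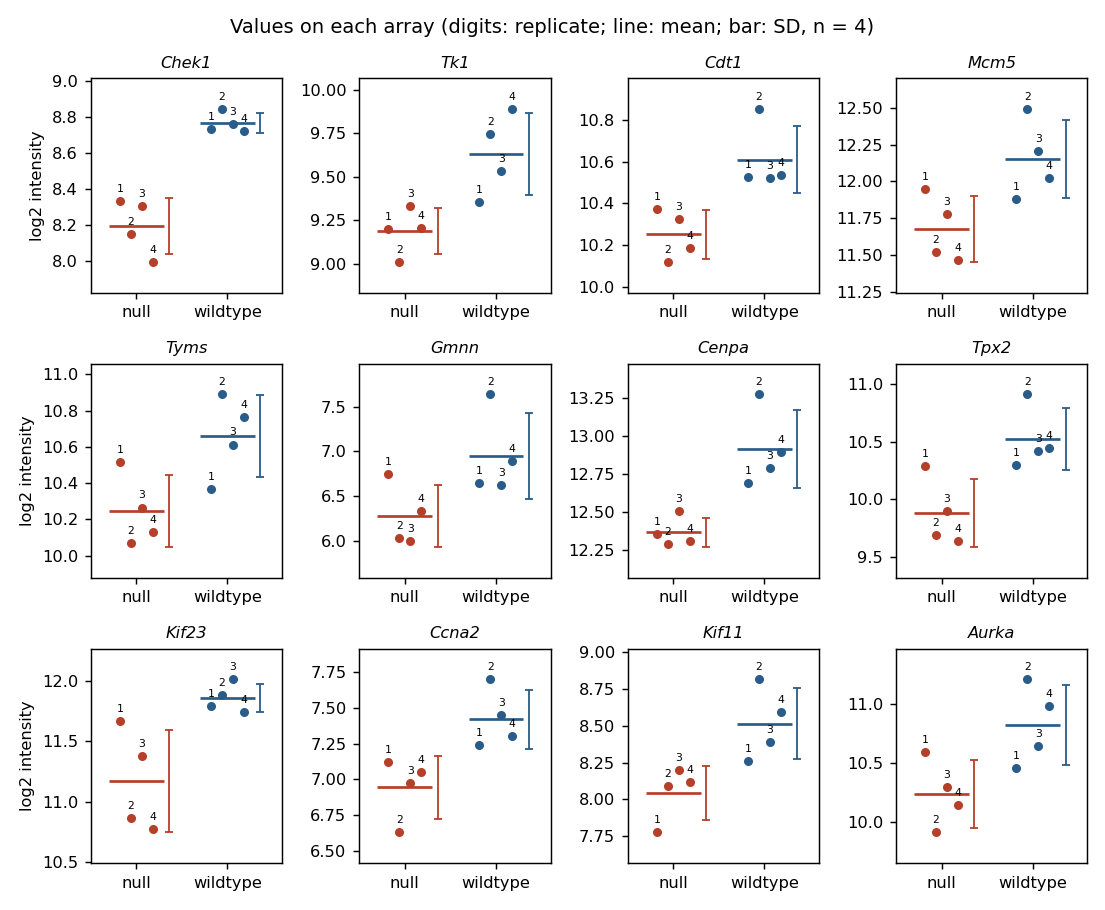
Log2 intensity on each array for the 6 replication and 6 mitosis genes of smallest unadjusted p, null left and wildtype right; digits give the replicate, lines the group means and bars the SD (n = 4). The vertical axes differ between genes and do not start at 0. Chek1, Tk1, Cdt1, Cenpa, Tpx2, Kif23, Ccna2 and Kif11 show no overlap of the groups, and wildtype replicate 2 is the top point in most panels.

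In mitosis, Cdk1, the kinase that drives entry, and its partner cyclin A2 were both lower in null. Ccna2 read 7.12, 6.63, 6.97 and 7.05 in null and 7.24, 7.70, 7.45 and 7.30 in wildtype, with no overlap but a small gap between null replicate 1 and wildtype replicate 1. The difference was -0.48 (SE 0.15, limma adjusted p = 0.134). Cdk1 averaged 9.87 ± 0.38 in null and 10.27 ± 0.16 in wildtype (SD, n = 4 each). Null replicate 1 at 10.44 was within the wildtype range and the other 3 null arrays were below it, so that the difference was -0.39 with all arrays (limma adjusted p = 0.254) and -0.58 without that array (limma adjusted p = 0.0175).

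Top2a, the topoisomerase that untangles sister chromatids, read 9.78, 10.23, 10.28 and 10.33 in null and 9.90, 10.63, 10.25 and 10.46 in wildtype by its brightest probe. The groups overlapped widely (difference -0.15, 95% interval -0.57 to 0.26). By ILMN_1255436 it read 8.05, 7.44, 7.89 and 7.38 in null and 8.42, 8.46, 8.63 and 7.79 in wildtype, a difference of -0.64 (limma adjusted p = 0.149). For this probe null replicate 1 and null replicate 3 lay above wildtype replicate 4 only.

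Cenpa is the histone H3 variant that marks centromeres. It read 12.36, 12.29, 12.51 and 12.31 in null and 12.69, 13.27, 12.79 and 12.90 in wildtype. No null array reached the wildtype range, and wildtype replicate 2 was the highest. The difference was -0.55 (95% interval -0.86 to -0.23, 1.46-fold higher in wildtype), with a limma adjusted p of 0.0935 and an exact permutation p of 0.0286. The dimmer Cenpa probe, ILMN_2471161, differed by -0.49, also without overlap, but was detected on only 2 null arrays against 4 wildtype arrays. Its null values, 4.53 to 5.08, were near background, so it adds little to the brightest probe. Cenpf, a large kinetochore protein, differed by -0.32 and -0.19 on its 2 probes, and by -0.16 and 0.14 without wildtype replicate 2.

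Bub1b, a kinase of the spindle checkpoint, had 2 tested probes of opposite sign. The brightest, ILMN_2774007, read 10.54, 10.06, 10.35 and 10.02 in null and 10.26, 11.07, 10.63 and 10.70 in wildtype, a difference of -0.42 (95% interval -0.84 to 0.00034). ILMN_2985969 read 6.90, 7.92, 8.02 and 8.0 in null and 6.86, 7.71, 7.15 and 7.50 in wildtype, a difference of 0.41 (95% interval -0.21 to 1.02). Null replicate 1 gave the highest null value by the brightest probe and the lowest by the other. Without it the dimmer probe differed by 0.68 (limma adjusted p = 0.0507). That probe was called higher in null without null replicate 1 and wildtype replicate 2 (0.81, limma adjusted p = 0.0167) and with array weights (0.71, limma adjusted p = 0.0121).

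The mitotic kinases differed among themselves. Aurka, which matures the spindle poles, read 10.60, 9.92, 10.30 and 10.15 in null and 10.46, 11.21, 10.64 and 10.98 in wildtype. Only null replicate 1 and wildtype replicate 1 crossed, and the difference was -0.59 (SE 0.20, limma adjusted p = 0.149). Aurkb, the kinase of the chromosomal passenger complex, differed by -0.41, and its partner in that complex Birc5, also known as survivin, by -0.17, -0.57 and -0.48 on 3 probes. Plk1 had the widest spread of the 39: wildtype replicate 3 read 7.31 and the other 7 arrays read 9.28 to 10.45. Its difference of 0.21 had an interval of -1.11 to 1.53, and it was -0.49 without that array.

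Spindle motors and microtubule proteins had a median difference of -0.56 over 4 tested genes, all lower in null. Tpx2, which activates Aurora A on spindle microtubules, read 10.29, 9.69, 9.90 and 9.64 in null and 10.30, 10.91, 10.42 and 10.44 in wildtype. The gap between null replicate 1 and wildtype replicate 1 was small, and the difference was -0.64 (95% interval -1.05 to -0.23, limma adjusted p = 0.115). Kif11, the motor that pushes spindle poles apart, read 7.78, 8.09, 8.20 and 8.12 in null and 8.26, 8.82, 8.39 and 8.59 in wildtype, without overlap (difference -0.47, limma adjusted p = 0.14).

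Kif23 encodes a motor of the central spindle that is needed for cytokinesis, and its brightest probe, ILMN_1220121, had the lowest difference of the 39 members. It read 11.67, 10.87, 11.37 and 10.77 in null and 11.79, 11.88, 12.01 and 11.74 in wildtype. The wildtype arrays were close together, and the null arrays spread below them. The difference was -0.69 (95% interval -1.13 to -0.25, 1.61-fold higher in wildtype), with a limma adjusted p of 0.115 and an exact permutation p of 0.0286. Of its other 3 tested probes, ILMN_1249092 and ILMN_2923463 differed by -0.37 and -0.18, the first detected on only 1 null and 3 wildtype arrays. ILMN_1250752 read 5.97 on null replicate 3 and 8.14 to 8.59 on the other 7 arrays.

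Nusap1, which bundles spindle microtubules, read 11.56, 11.10, 11.16 and 11.05 in null and 11.42, 11.63, 11.59 and 11.18 in wildtype by its brightest probe, a difference of -0.24. The others of its probes, ILMN_3156419 and ILMN_1231500, differed by -0.19 and 0.04. The last read 7.09, 7.18, 7.23 and 7.36 in null and 7.24, 7.42, 6.86 and 7.17 in wildtype, with wide overlap.

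The 2 members of the anaphase-promoting complex pathway had intervals that spanned 0 by their brightest probe. Cdc20, its activator, read 10.34, 10.62, 10.78 and 10.50 in null and 10.26, 11.16, 10.32 and 10.45 in wildtype by the brightest of 4 probes, a difference of 0.01 (95% interval -0.44 to 0.47). Apart from wildtype replicate 2, the null arrays were as high as the wildtype arrays. On ILMN_2612206, ILMN_2698767 and ILMN_2867901 it differed by -0.08, -0.30 and -0.38, the first of which was 0.11 without wildtype replicate 2. Ube2c, the ubiquitin-conjugating enzyme of the complex, differed by -0.21 (95% interval -0.76 to 0.34) and by -0.01 without wildtype replicate 2.

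**Figure D4:**
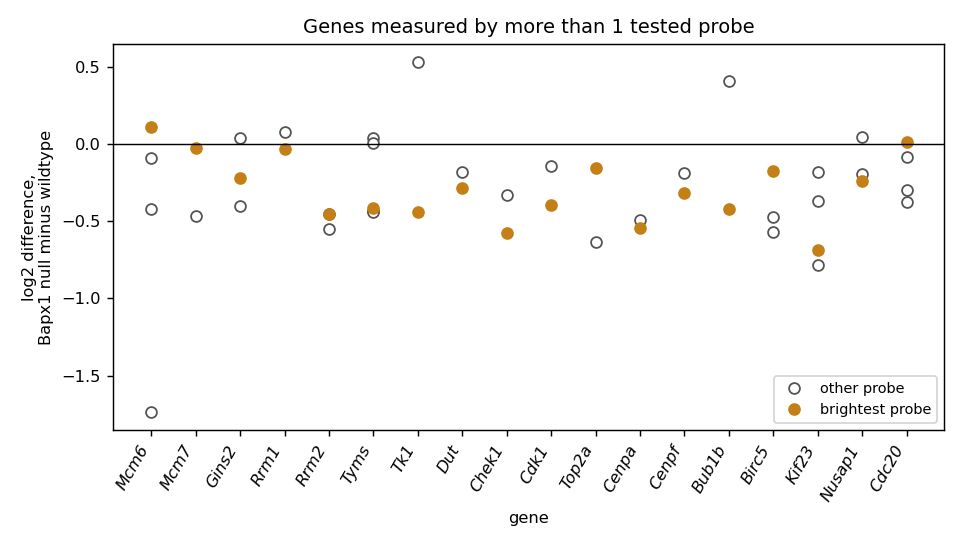
Log2 difference, Bapx1 null minus wildtype, for every tested probe of the members with more than 1; filled points are the brightest probe of a gene and open points its others. The probes of Mcm6, Gins2, Rrm1, Tyms, Tk1, Bub1b, Nusap1 and Cdc20 lie on both sides of 0, and the lowest point is ILMN_1217331 of Mcm6 at -1.74.

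Over all 70 tested probes of the members, 59 had a difference below 0 and 11 above, against 55.1% of all tested probes below 0, and 0 were called, against 0.781% of all probes. Without null replicate 1 and wildtype replicate 2, 51 of the 70 were below 0, 14 were called lower and 3 were called higher. In that setting 9.38% of all genes, by their brightest probe, were called lower and 12.2% were called higher. These shares are over genes and the counts are over probes, so they are not directly comparable. Among genes holding the E2F letters in their promoters, the tested members differed by -0.47 (Mcm5) to 0.11 (Mcm6). Among mitosis genes holding the CHR letters, they differed by -0.69 (Kif23) to 0.21 (Plk1, or -0.49 without wildtype replicate 3).

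Lists of other genes of the same processes, written from general knowledge, gave the context. Of 47 other replication genes with a tested probe, 35 were lower in null and 0 were called, with a median of -0.22. The 2 of smallest p were Rfc3, of the clamp loader (6.00 ± 0.13 in null and 6.52 ± 0.07 in wildtype, limma adjusted p = 0.0664), and Pole, the leading-strand polymerase (8.96 ± 0.25 in null and 9.71 ± 0.25 in wildtype, limma adjusted p = 0.0732; SD, n = 4 each). Of 72 other mitosis genes, 60 were lower and 0 were called, with a median of -0.31. Here Cenpk, of the inner kinetochore, differed by -0.85 (limma adjusted p = 0.061) and Zwilch, of a kinetochore complex of the spindle checkpoint, by -0.62 (limma adjusted p = 0.103).

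Of 14 transcription factors and partners of the cell cycle, 11 were lower and 0 were called. Rbbp4, a retinoblastoma-binding chromatin protein, differed by -0.97 (limma adjusted p = 0.082) and Lin37, of the DREAM complex, by -0.50 (limma adjusted p = 0.0935). Among D cyclins and CDK inhibitors, 8 of 12 were higher in null and 1 was called. This was Ccng2, the atypical cyclin G2 of cells that leave the cycle, which read 8.89, 8.39, 9.45 and 8.60 in null and 10.69, 10.60, 10.17 and 10.70 in wildtype. All null arrays lay far below the wildtype arrays, and Ccng2 fell by 1.71 on the log2 scale (SE 0.23, limma adjusted p = 0.0149).

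A one-way test per probe without moderation, of the kind the methods name, was run on the values normalized here, without the scaling, filter and fold cutoff of the study. At a nominal alpha of 0.05 it passed 7 replication and 6 mitosis members, all lower in null, where 11% of all genes passed in that direction. After Benjamini-Hochberg adjustment 0 members passed. The normalization set the size of the differences. With arrays only centred on their median, the median difference over all probes was 0.19, and the members' medians were -0.12 and -0.16. Relative to all probes these were -0.32 and -0.35, against -0.32 and -0.37 in the main setting. Scaled also to a common median absolute deviation, the spread measure the study named, all probes had a median of -0.26 and the members -0.86 and -1.04. That scaling was run on the values corrected here, not on those the study scaled. In the authors' log2 table the members' medians were -0.38 and -0.43, with all probes at -0.02. That table lacks null replicate 4 and holds another null array in its place, so it differs in samples as well as in processing.

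**Figure D5:**
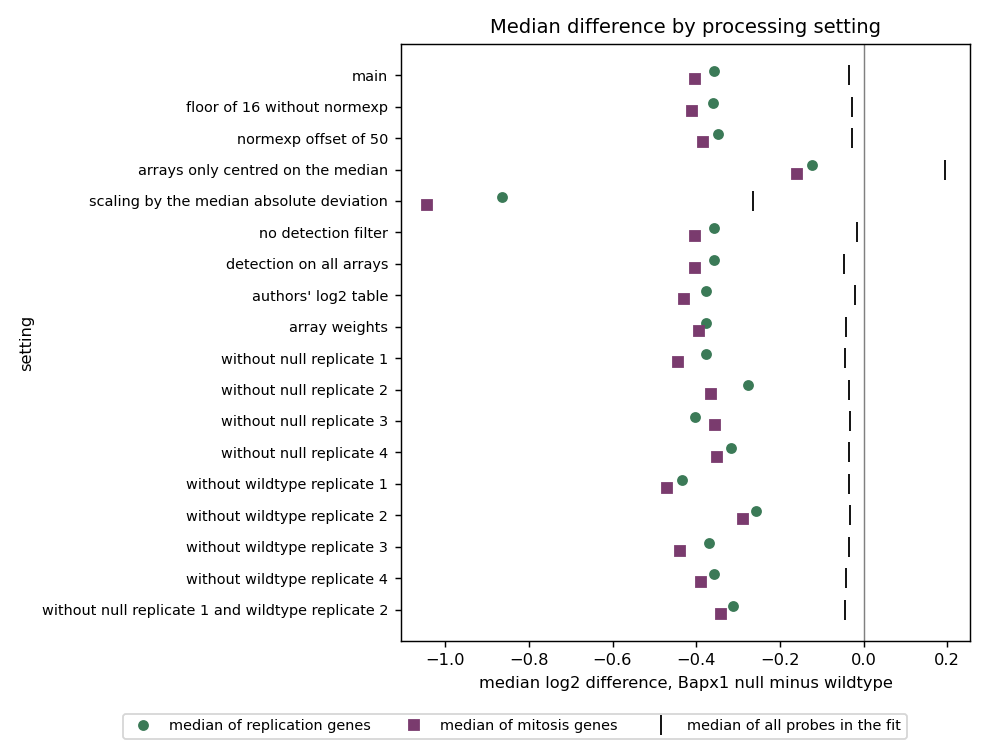
Median log2 difference, Bapx1 null minus wildtype, of the 23 replication genes (circles), the 16 mitosis genes (squares) and all probes in the fit (bars) under each processing setting. Both medians lie below that of all probes in every setting plotted, and they are nearest to 0 with centring on the median, where all probes lie at 0.19.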

How the data were processed

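RNA from EGFP-sorted cells of E12.5 vertebral columns, 4 Bapx1 null and 4 Bapx1 wildtype, was hybridized to Illumina mouse BeadChips. The authors subtracted background in GenomeStudio (version not given in the sources used here), and the non-normalized table as deposited holds the resulting linear intensity, where 28.0% to 31.4% of an array's values were below 0, and a detection p-value beside it that was turned into 1 minus the value as deposited. A further deposited table gives log2 values less a baseline for every probe, and the sources used here do not say which arrays set that baseline or how it was scaled. The non-normalized table names probes by address, so 35665 of 45281 probes (78.76%) were matched by value to the identifiers of the log2 table, with a tolerance of 0.001 over the 7 arrays that both share. Replicate numbers are those of the non-normalized table. The log2 table lacks null replicate 4 and holds 1 other null array in its place.

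In the platform annotation 34885 probes had 1 gene, 18 had several, and 10378 were unlisted. All 341 entries of the gene lists were found in the GRCm38.p6 gene table. Intensities were corrected with normexp (controls inferred from the detection p, offset 16), quantile normalized and log2 transformed with limma 3.58.1 (R 4.3.3, statmod 1.5.0). The 19965 probes detected (p under 0.05) on 4 or more of the 8 arrays were kept, and genotypes were compared with lmFit and eBayes. An adjusted p under 0.05 (Benjamini-Hochberg over all tested probes) was called. Exact permutation tests were two-sided over 70 splits. Where an array was left out, the fit pooled the spread of the others. A log2 difference is compressed for dim probes by the offset. Array number limits the precision.

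The members and lists were chosen with earlier results of these data known. Described in full were, in each class, up to 6 members of smallest p, members whose tested probes differed in sign, and Top2a, Pcna and Mcm2 as usual markers (Mki67 had no listed probe). Of the other lists, called genes or the 2 of smallest p were named. Alternatives were a floor of 16 without normexp, an offset of 50, median centring, scaling by the median absolute deviation, no or stricter detection filters, the log2 table, array weights, the replicate number as a block, a one-way test as in the study's methods, each array left out, other probes and the mean over probes. The fit was tested on simulated data. Matching, exact tests and figures were run in Python 3.11.15 (scipy 1.17.1, pandas 2.3.3, matplotlib 3.10.9).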

Additional observations from a re-analysis of the deposited data

Results flagged for a closer look

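Each of the 70 tested probes of the members, and the mean over each of the 2 classes, was examined within each group of 4 arrays for a single array far from the other 3, measured as its gap to the nearest array over the range of the group and compared with Dixon's critical value. Of 144 groups, 12 passed. Chance flags about 1 in 20 independent groups, but these groups share the same arrays, so that rate is only a guide. In 5 of the 12 groups that passed, wildtype replicate 2 was the high array. These were Cdt1 (10.85 against 10.52 to 10.54 on the other wildtype arrays, gap over range 0.958), Mcm7 by ILMN_1213616 (9.93 against 9.28 to 9.37, 0.869), Gins2 by ILMN_1245109 (7.37 against 6.74 to 6.83, 0.852), Gins2 by ILMN_2547942 (9.08 against 8.42 to 8.45, 0.956) and the dimmer Cdk1 probe ILMN_2961747 (5.39 against 4.86 to 4.94, 0.856). In Ccne2 the same array was the low one (7.34 against 7.82 to 7.89, 0.872).

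Null replicate 1 was high for Tyms by ILMN_2441895 (5.74 against 5.01 to 5.12 on the other null arrays, 0.85) and for Cdk1 by ILMN_2657844 (10.44 against 9.64 to 9.73, 0.89). It was low for Bub1b by ILMN_2985969 (6.90 against 7.92 to 8.02, 0.911). Null replicate 3 was high for Plk1 (10.28 against 9.28 to 9.45, 0.832), and low for Chek1 by ILMN_2630974 (7.82 against 7.95 to 7.98, 0.839) and for Kif23 by ILMN_1250752 (5.97 against 8.14 to 8.46, 0.872).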

How the results depend on the processing

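Over all probes, the 156 calls became 99 with a floor and no normexp, 1 with scaling by the median absolute deviation, 75 without a detection filter, 16 in the authors' log2 table, 6190 with array weights, 12 with the methods' test after Benjamini-Hochberg and 3763 at its nominal alpha. They ranged between 21 and 3185 with 1 array left out, and were 4048 without null replicate 1 and wildtype replicate 2 together. The replicate number as a block gave 20 calls over all probes and 0 members. Same-numbered arrays did not deviate together (correlations -0.05, -0.11, -0.20 and 0.04), so the numbers were not taken as pairs.

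Calls among replication members were 1 with an offset of 50 (Chek1, lower, against 0.594% of all genes) and 1 with the mean over probes. For the mean over probes the share over all genes is not given here, so that call has no background beside it. There were 14 with array weights (13 lower and Ccne1 higher, against 16.1% and 16.4% of all genes), 7 at the nominal alpha (all lower, against 11%), 0 to 5 with 1 array left out and 7 without both arrays (6 lower and Ccne1 higher, against 9.38% and 12.2%). Calls among mitosis members were all lower. There were 10 with array weights (against 16.1% of all genes), 6 at the nominal alpha (against 11%) and 5 without both arrays (against 9.38%). With 1 array left out there were 0 to 5. In both classes the 5 calls with 1 array left out came without null replicate 1, where 7.27% of all genes were called lower. The medians moved to -0.12 and -0.16 with median centring and to -0.86 and -1.04 with scaling by the median absolute deviation. No member was called in the log2 table of the authors, which lacks null replicate 4.

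Of the comparisons of a setting with the main difference of a single member, 703 kept both direction and side of the threshold, 60 kept the direction and passed, and 48 turned in sign. Centring on the median turned Mcm4 (0.012), Mcm7 (0.23), Cdc45 (0.00093), Gins2 (0.069), Prim1 (0.0043), Rrm1 (0.20), Dut (0.018), Top2a (0.076), Birc5 (0.060) and Ube2c (0.10), where all probes had a median of 0.19. Scaling by the median absolute deviation turned Mcm6 (-0.86), Plk1 (-0.47) and Cdc20 (-0.89). The log2 table, which holds another array in place of null replicate 4, turned Mcm6 (-0.066) and Cdc20 (-0.087). Array weights turned Mcm7 (0.095) and Rrm1 (0.18). With 1 array, or null replicate 1 and wildtype replicate 2 together, left out, Mcm7 ranged over -0.14 to 0.22, Rrm1 over -0.14 to 0.30, Cdc45 over -0.48 to 0.029, Top2a over -0.29 to 0.077, Plk1 over -0.49 to 0.61, Birc5 over -0.29 to 0.024, Cdc20 over -0.082 to 0.29 and Ube2c over -0.37 to 0.081. Probes other than the brightest turned Mcm6 (-1.74, -0.42 and -0.089), Gins2 (0.038), Rrm1 (0.074), Tyms (0.035 and 0.0076), Tk1 (0.53), Bub1b (0.41), Nusap1 (0.044) and Cdc20 (-0.083, -0.30 and -0.38). The cause of these turns was not tested. Probes near background are compressed, which limits the size of their differences.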
